A study of Homo sapiens with 1 sample.

Results

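The miRNAs examined here are known from muscle, liver and brain, and they were measured on a microarray of colorectal carcinoma cells, a cell type in which none of them is a usual marker. They were selected by name, as the human miRNA spots whose systematic name was one of hsa-miR-133a-3p, hsa-miR-133b, hsa-miR-206, hsa-miR-208b-3p, hsa-miR-499a-5p, hsa-miR-122-5p, hsa-miR-124-3p, hsa-miR-9-5p and hsa-miR-9-3p. These are 9 of the 2549 human miRNAs on the array. The study asks how the circular RNA circLONP2 alters miRNA levels in colorectal carcinoma. The sample was the DLD-1 line, a human colorectal carcinoma line of epithelial origin, carrying the negative control plasmid pLVX-NC. The line was grown in RPMI medium with fetal bovine serum, and no time after transfection is given in the sources used here. With 1 array of 1 condition there was no replicate, so all errors below are SDs between spots of that array, and no difference between conditions could be tested.

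Each miRNA is read by 20 spots, spread over different probes, and brightness is given on a linear scale after the scanner software had subtracted the local background, so that a spot without signal lies near or below 0. The software calls a spot "well above background" by its own rule, and flags a whole miRNA as detected. Brightness depends on how well a probe binds as well as on the RNA, so values of different miRNAs are not amounts of RNA that can be set against each other.

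A miRNA is cut from a hairpin precursor, and 1 or both arms (5p and 3p) can be loaded into an Argonaute protein, where the seed (bases 2 to 8) pairs with target mRNAs. miR-133a, hsa-miR-133b and hsa-miR-206 belong to the myomiRs of striated muscle, which take part in myoblast proliferation and differentiation. miR-208b and miR-499a lie within myosin heavy chain genes and are expressed with slow and cardiac myosin. miR-122 is the dominant miRNA of hepatocytes. miR-124 and miR-9 mark neurons and neural progenitors, and of the arms of miR-9 the 5p arm is usually taken as the main product.

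The mature sequences are shown because several of these miRNAs differ from each other, or from an undetected relative, by very few bases. RefSeq (GRCh38.p14) gave a sequence for 8 of the 9 members. Each is written 5′ to 3′ with the seed in capitals.
hsa-miR-133a-3p: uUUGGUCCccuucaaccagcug
hsa-miR-133b: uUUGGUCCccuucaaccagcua
hsa-miR-206: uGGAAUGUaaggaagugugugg
hsa-miR-208b-3p: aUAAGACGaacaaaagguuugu
hsa-miR-499a-5p: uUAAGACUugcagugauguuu
hsa-miR-122-5p: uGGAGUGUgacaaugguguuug
hsa-miR-9-5p: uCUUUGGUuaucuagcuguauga
hsa-miR-9-3p: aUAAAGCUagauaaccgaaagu
hsa-miR-133a-3p and hsa-miR-133b share their seed. The other 6 seeds each occur in 1 member.

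hsa-miR-206 lies at chr6:52144401-52144422 on the plus strand, and hsa-miR-133b at chr6:52148988-52149009 on the same strand, inside the long non-coding RNA gene LINCMD1. The same mature hsa-miR-133a-3p comes from 2 genes, MIR133A1 at chr18:21825712-21825733 on the minus strand, within MIB1 and MIR133A1HG, and MIR133A2 at chr20:62564970-62564991 on the plus strand, within MIR1-1HG. hsa-miR-208b-3p is at chr14:23417997-23418018 on the minus strand within MYH7, which encodes the slow skeletal and cardiac beta myosin heavy chain. hsa-miR-499a-5p is at chr20:34990408-34990428 on the plus strand within MYH7B. hsa-miR-122-5p is at chr18:58451088-58451109 on the plus strand within MIR122HG. Both arms of miR-9 come from 3 genes, MIR9-1 on chromosome 1, MIR9-2 on chromosome 5 and MIR9-3 on chromosome 15, each within a non-coding host gene.

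Of the 9 miRNAs, 5 carried the Detected flag in DLD-1 cells (hsa-miR-124-3p, hsa-miR-208b-3p, hsa-miR-206, hsa-miR-9-3p and hsa-miR-133a-3p) and 4 did not (hsa-miR-133b, hsa-miR-122-5p, hsa-miR-9-5p and hsa-miR-499a-5p). The flag was carried by 56.8% of all human miRNAs, so the share among these tissue-restricted miRNAs was near the background of the array. By tissue, 3 of 5 muscle miRNAs, 2 of 3 brain miRNAs and 0 of 1 liver miRNAs were detected. Background was also judged from the 1000 spots of the negative control probes, of which 99% had a brightness under 12.5, called the control level below. The brightest probe lay above the control level for the same 5 miRNAs, and for 55.9% of human miRNAs. When a probe needed at least 0.5 of its spots to be well above background, 4 of the 9 remained, against 49.9% of human miRNAs. With every spot well above background 2 remained (hsa-miR-124-3p and hsa-miR-208b-3p), against 45.8% of human miRNAs. With at least 0.5 of the spots positive and significant over background, a looser call of the software, 6 of the 9 passed (hsa-miR-133b in addition), against 68.9%. Of the 174 spots left after 6 outlier spots were removed, 71 (40.8%) were well above background, against 45.0% of all human miRNA spots.

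**Figure D1:**
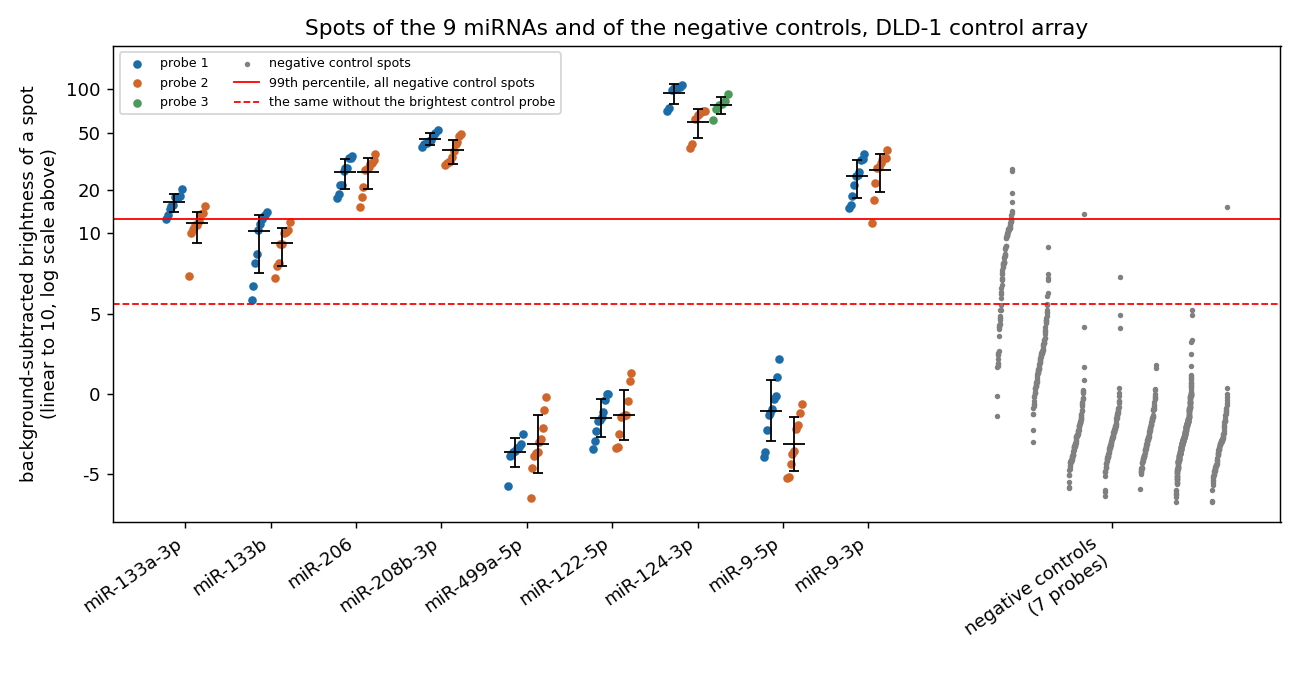
Brightness of each spot after background subtraction (linear up to 10, log scale above) for the 9 miRNAs, coloured by probe, and for the 7 negative control probes in grey. Black bars are the mean and SD over the spots of a probe, and the red lines mark the control level from all 7 control probes (12.5) and from those left without the brightest (5.58). hsa-miR-124-3p, hsa-miR-208b-3p and hsa-miR-206 sit wholly above the upper line, hsa-miR-133b straddles it, and hsa-miR-499a-5p, hsa-miR-122-5p and hsa-miR-9-5p lie around or below 0.

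Among the muscle miRNAs, hsa-miR-208b-3p had the highest signal against the negative controls. Its 18 spots ran from 29.9 over a median of 42.1 to 52.0, with a mean of 41.0 ± 7.03 (SD over spots), and all 18 were well above background. Its brighter probe was 3.62-fold above the control level. The kept spots of both its probes thus lay above every negative control spot, the highest of which was 27.9.

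hsa-miR-206 was also detected. Its 20 spots had a lowest value of 15.3, a median of 28.2, a highest value of 35.5 and a mean of 26.7 ± 6.24 (SD over spots), and 17 were well above background. The 2 probes had nearly the same mean, 26.5 ± 6.25 and 26.8 ± 6.58 (SD over 10 spots each), and the brighter one was 2.14-fold above the control level. All 20 spots lay above that level, but some of them overlapped the brightest negative control spots.

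hsa-miR-133a-3p carried the flag on weak signal. Its 19 spots ran from 7.32 over a median of 13.8 to 20.4, with a mean of 14.2 ± 3.33 (SD over spots). Only 1 of them was well above background (a further spot at 21.6 was left out as an outlier), although all 19 were positive and significant over background. The brighter probe had a mean of 16.4 ± 2.43 (SD over 10 spots) and was 1.31-fold above the control level, while the dimmer one had a mean of 11.8 ± 2.38 (SD over 9 spots), below it.

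hsa-miR-133b, which differs from hsa-miR-133a-3p by 1 base, was not flagged. The 19 spots ran from 5.84 over a median of 10.0 to 14.2, with a mean of 9.98 ± 2.38 (SD over spots), and 0 were well above background, while all 19 were positive and significant. The range overlapped that of hsa-miR-133a-3p, and 4 of the 19 spots lay above the control level, against 13 of 19 for hsa-miR-133a-3p.

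hsa-miR-499a-5p was at the level of the negative controls. Its 19 spots ran from -6.52 over a median of -3.55 to -0.184, so that every one was below 0. None was called well above background or positive and significant (0 of 19).

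The liver miRNA hsa-miR-122-5p gave no signal above background on either probe. The 20 spots ran from -3.45 over a median of -1.43 to 1.30, with 18 of them below 0 and 0 well above background. The limit of detection of the array is not known for this probe pair, so a low level of hsa-miR-122-5p below it would not be seen.

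The brain miRNA hsa-miR-124-3p had the highest brightness of the 9. Its 20 spots ran from 39.4 over a median of 73.8 to 106.5, with a mean of 77.2 ± 19.4 (SD over spots), and all 20 were well above background. Its 3 probes had means of 94.1 ± 15.1 (SD over 7 spots), 59.7 ± 13.4 (SD over 7 spots) and 77.9 ± 10.5 (SD over 6 spots). On the log2 scale the first and the second probe differed by 0.68 (standard error 0.17 from the spots), and every spot of each probe still lay above the highest negative control spot. The first probe was 7.53-fold above the control level. Its mean brightness was above that of 74.5% of human miRNAs.

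The arms of miR-9 gave opposite calls. hsa-miR-9-3p was detected, with 20 spots running from 11.8 over a median of 27.7 to 38.2 and a mean of 26.3 ± 7.66 (SD over spots). Of these, 15 were well above background, 19 lay above the control level, and the brighter probe was 2.21-fold above it. hsa-miR-9-5p was not detected, and its 19 spots ran from -5.25 over a median of -1.93 to 2.16, with 17 below 0. The highest spot of hsa-miR-9-5p was below the lowest spot of hsa-miR-9-3p. A further hsa-miR-9-5p spot, with a brightness of 33.3 and called well above background, stood apart from the other 9 spots of its probe, was marked as an outlier by the software and was left out.

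The Detected flag follows a simple rule in this file. All 1448 detected human miRNAs had at least 1 probe whose total signal was more than 3 times the error given for it, and all 1101 undetected ones had none. This ratio therefore shows how far each member lay from its call. It was 9.20 for the best probe of hsa-miR-124-3p, 7.67 for hsa-miR-208b-3p, 5.85 for hsa-miR-9-3p and 5.75 for hsa-miR-206. For hsa-miR-133a-3p it was 3.99 on the brighter probe and 2.99 on the other, so its flag rested on 1 probe. The probes of hsa-miR-133b reached 2.68 and 2.43. hsa-miR-122-5p, hsa-miR-9-5p and hsa-miR-499a-5p had ratios below 0 on every probe, the highest being -0.281 for hsa-miR-9-5p. The brightest of the 7 negative control probes reached 2.11, and the other 6 reached at most 0.567, so hsa-miR-133b lay between that control probe and the lower probe of hsa-miR-133a-3p.

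**Figure D2:**
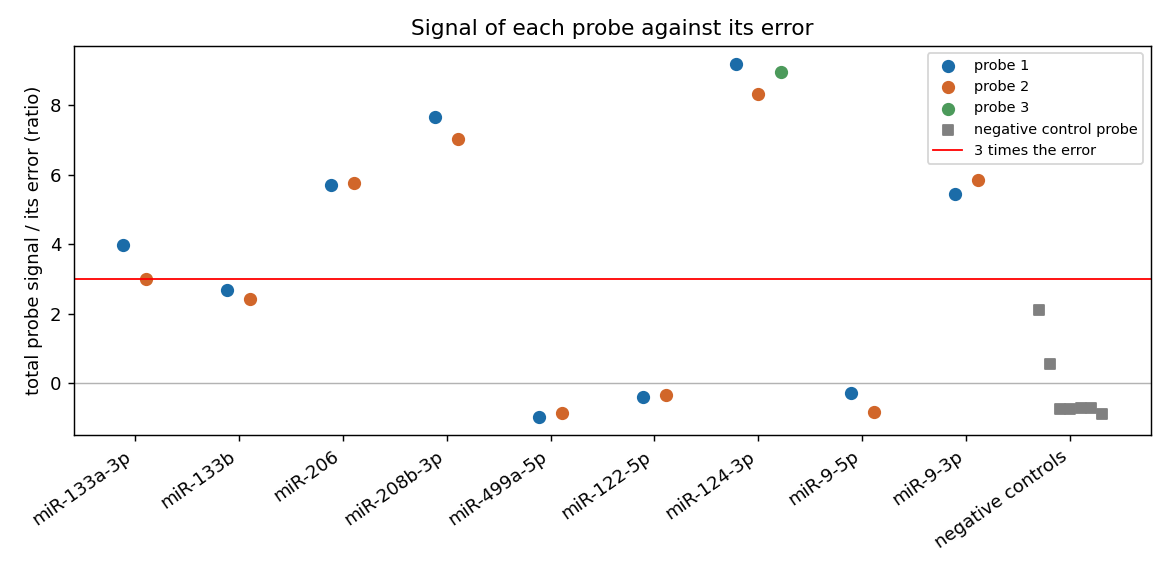
Total signal of each probe divided by its error (ratio without unit), for the probes of the 9 miRNAs and for the 7 negative control probes. The red line marks 3, the ratio above which every detected human miRNA lay. hsa-miR-133a-3p has 1 probe above the line (3.99) and 1 at 2.99, hsa-miR-133b lies just below it, and hsa-miR-122-5p, hsa-miR-9-5p and hsa-miR-499a-5p lie below 0.

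The negative control probes were not uniform, which touches the weakest members. The 100 spots of the brightest control probe had a median of 8.62 and 88 of them were positive and significant over background, while the medians of the other 6 control probes ran from -3.18 to 2.27. The hsa-miR-133b spots, from 5.84 to 14.2, lay within the range of this 1 control probe. Without it the control level was 5.58, and the best probe of hsa-miR-133b was then 1.88-fold above that level and the best probe of hsa-miR-133a-3p 2.94-fold. With that lower level 6 of the 9 miRNAs were above background, as were 64.7% of human miRNAs.

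Close sequence relatives on the array were looked up among the 2248 human miRNAs with a RefSeq sequence, to see whether a relative carried signal as well. Pairs are shown with the bases that differ in capitals, and positions are counted from 1 at the 5′ end.
hsa-miR-133a-3p: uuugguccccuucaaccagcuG
hsa-miR-133b: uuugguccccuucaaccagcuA
hsa-miR-206: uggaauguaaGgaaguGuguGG
miR-1-3p: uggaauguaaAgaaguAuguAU
hsa-miR-208b-3p: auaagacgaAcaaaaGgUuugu
miR-208a-3p: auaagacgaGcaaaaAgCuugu
hsa-miR-133b differs from hsa-miR-133a-3p by G22A, and both had signal between the bulk of the negative controls and the clearly detected miRNAs. miR-1-3p, the other main myomiR, has the seed of hsa-miR-206 and differs from it by G11A, G17A, G21A and G22U. It was not detected, its 20 spots ran from -3.26 to 1.47, and none overlapped those of hsa-miR-206. miR-613, also with this seed but a different 3′ part, was not detected either, with spots from -3.41 to 3.63. miR-208a-3p, whose gene lies near MIR208B on chromosome 14 and which is expressed with the alpha myosin heavy chain of the heart, differs from hsa-miR-208b-3p by A10G, G16A and U18C. It was not detected, with 20 spots from 1.24 to 4.90 and 0 well above background, all below the lowest spot of hsa-miR-208b-3p. miR-3591-5p, from the locus of miR-122 and 4 bases apart from hsa-miR-122-5p over 22 bases, was undetected as well, with spots from -3.67 to 2.34. Neither arm of miR-9 nor hsa-miR-499a-5p had a relative within 4 mismatches or with the same seed among the sequences searched. Of the relatives found by sequence, only hsa-miR-133b had spots that overlapped those of a detected member. hsa-miR-124-3p had no sequence here, so no relatives were searched for it.

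**Figure D3:**
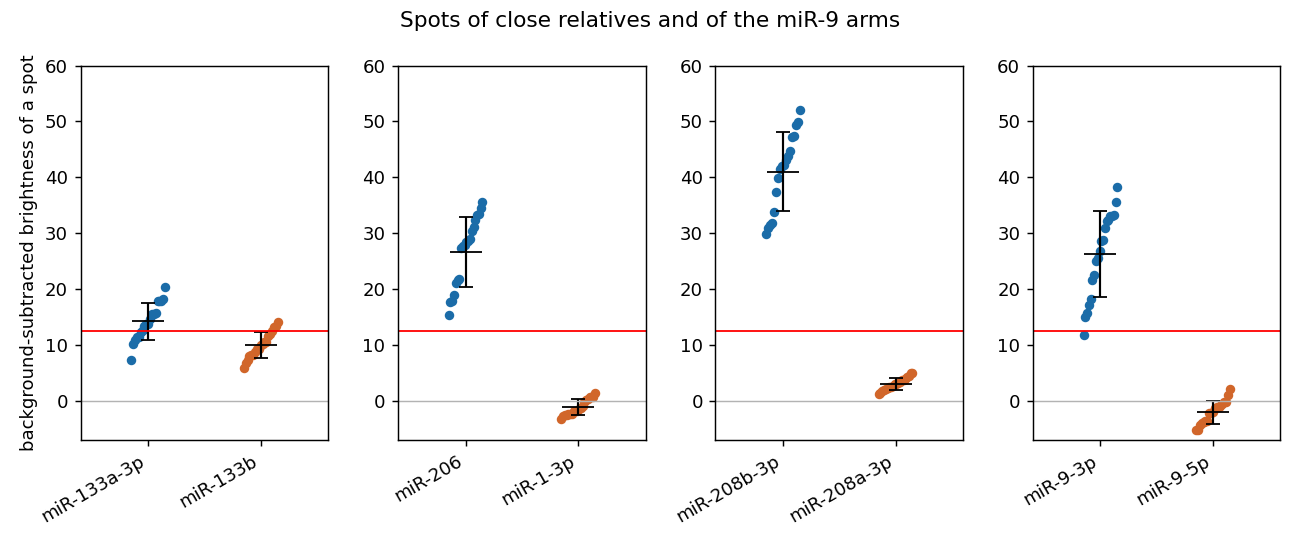
Brightness of each spot after background subtraction for 3 pairs of close relatives and for the arms of miR-9, with the mean and SD over spots in black. The red line is the control level (12.5). The spots of hsa-miR-133a-3p and hsa-miR-133b overlap, while those of hsa-miR-206 and miR-1-3p, of hsa-miR-208b-3p and miR-208a-3p, and of hsa-miR-9-3p and hsa-miR-9-5p do not.

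Outside the miR-9 pair, none of the opposite arms of the members carried the Detected flag. On the array, miR-133a-5p, miR-208b-5p, miR-499a-3p, miR-122-3p and miR-124-5p measure the other arm of a member. Of these 5, 0 were detected, against 56.8% of all human miRNAs, and this difference was not tested. miR-124-5p, opposite the brightest member, had 20 spots from -2.51 to 11.1, none of them well above background (0 of 20) but 11 positive and significant, and its best probe had a signal of 1.92 times its error. miR-208b-5p, opposite the brightest muscle member, had 19 spots from -5.24 to -0.434. miR-133a-5p ran from -0.327 to 5.93 over 19 spots, with 3 positive and significant.

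The position of a spot on the array moved with its brightness, also for the members. Over 2297 probes of detected human miRNAs with a median brightness of more than 2 times the control level, spots in the first 49 of the 164 columns were dimmer than the median of their probe by 0.13 on the log2 scale (median), against 0.01 above it in the other columns. Deviations by row stayed between -0.01 and 0.02. All 5 detected members had a lower mean in the first 49 columns. For hsa-miR-206 the mean was 18.7 ± 2.36 over 6 spots there and 30.1 ± 3.65 over 14 spots elsewhere (SD). All 3 hsa-miR-206 spots that were not well above background lay in those columns. hsa-miR-9-3p had a mean of 19.4 ± 6.60 over 8 spots there and 30.9 ± 4.03 over 12 spots elsewhere, and all 5 of its spots not well above background were again in the first 49 columns. Elsewhere 14 of 14 spots of hsa-miR-206 and 12 of 12 of hsa-miR-9-3p were well above background. For hsa-miR-124-3p the means were 60.1 ± 15.9 over 6 spots and 84.5 ± 16.1 over 14 spots. They were 30.9 ± 1.37 over 2 spots and 42.3 ± 6.36 over 16 spots for hsa-miR-208b-3p. For hsa-miR-133a-3p they were 12.8 ± 2.80 over 8 spots and 15.3 ± 3.38 over 11 spots. The array-wide value is a median of log2 deviations while these are linear means, so their sizes are not directly comparable. The reason for the drops was not tested. Both outlier spots of hsa-miR-208b-3p, at 16.0 and 20.6, came from the first 49 columns too. hsa-miR-9-5p, with 11 of its 19 spots there, was below 0 on average in both areas (means of -2.23 and -1.77). The boundary of 49 columns was chosen after the data were examined.

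**Figure D4:**
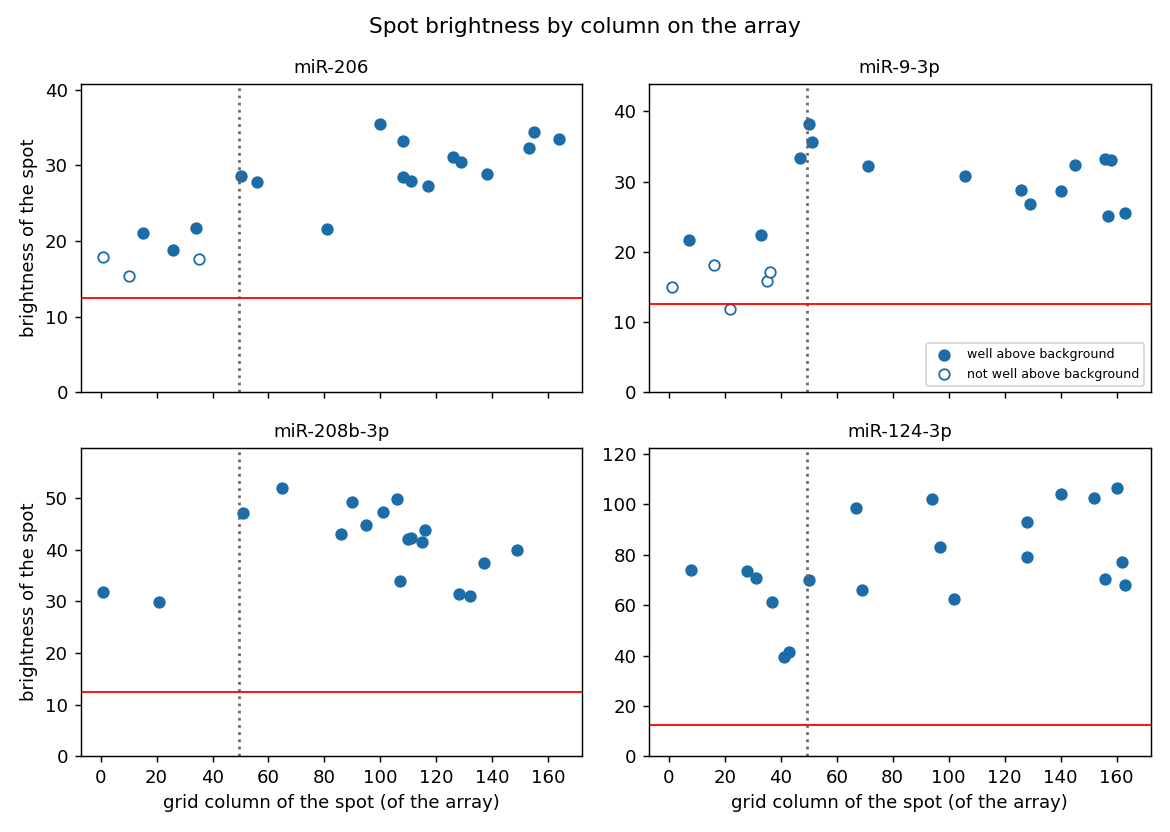
Brightness of each spot against its grid column (1 to 164) for hsa-miR-206, hsa-miR-9-3p, hsa-miR-208b-3p and hsa-miR-124-3p. Filled points were called well above background and open points were not, the dotted line separates the first 49 columns, and the red line is the control level (12.5). The open points of hsa-miR-206 (3) and of hsa-miR-9-3p (5) all lie in the first 49 columns.

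Base composition of the miRNAs also moved with detection across the array. Among the 2248 human miRNAs with a sequence, 30.9% were detected in the lowest of 4 bins by share of G (up to 18.2% of bases), and 44.1%, 64.3% and 91.8% in the next ones, the last of which held miRNAs with 38.1% G or more. This is a description over miRNAs of 1 array. hsa-miR-206 (45.5% G) and hsa-miR-122-5p (40.9% G) were both in the bin richest in G, where 516 of 562 miRNAs were detected, and only hsa-miR-206 was. hsa-miR-9-3p (18.2% G) and hsa-miR-133a-3p (18.2% G) were detected in the poorest bin, where 186 of 601 were, while hsa-miR-133b (13.6% G) was not. hsa-miR-208b-3p (22.7% G) was detected in the next bin, in which hsa-miR-499a-5p (23.8% G) and hsa-miR-9-5p (21.7% G) were not detected. The part of base composition in these calls was not tested.

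Other miRNAs of muscle, brain and liver were counted in the same way. Of 17 on the array, 4 carried the flag, 23.5% against 56.8% of all human miRNAs. These 17 include the 5 opposite arms above, and without them 4 of 12 carried it. The difference from the members was not tested. Taken relative to the 75th percentile over detected probes, the median of the 17 was -6.47 on the log2 scale, and -5.10 without the opposite arms. It was -4.18 for the 9 members and -4.27 for all human miRNAs. miR-128-3p, a miRNA abundant in brain that many other tissues also contain, had 20 spots from 22.8 to 30.2, each well above background. miR-208a-5p had 19 spots from 19.0 to 39.3, each well above background, although its 3p arm was undetected. miR-129-5p, of brain, ran from 7.09 to 76.7 over 18 spots, with 8 well above background. Its flag rested on 1 probe, with a signal of 8.86 times its error against 2.69 on the other. miR-129-2-3p was flagged, also on 1 probe (4.04 against 2.33), although its 18 spots ran only from 7.67 to 19.6, with 1 well above background. The other 13, among them miR-137 and miR-153-3p of neurons, were not detected. The highest spot of miR-137 was -0.251 and that of miR-153-3p was -0.569.

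Epithelial and intestinal miRNAs were set beside them as a check of the cell line. Of 11 on the array, 9 were detected, against 56.8% of all human miRNAs. The median of the 11 was -2.87 on that log2 scale, against -4.27 for all human miRNAs. The members hsa-miR-124-3p (-1.73) and hsa-miR-208b-3p (-2.61) lay above the median of the 11, and the other members lay below it. miR-141-3p, of the miR-200 family that maintains epithelial identity, had the highest mean brightness of this list, 3024 ± 401.1 (SD over 20 spots). miR-21-5p, which is abundant in carcinomas, followed with 228.8 ± 31.6 (SD over 20 spots). The other miR-200 family miRNAs of the list were also detected but were far dimmer than miR-141-3p. Their means (SD over spots) were 85.3 ± 29.8 for miR-200c-3p, 81.2 ± 9.37 for miR-200b-3p and 30.9 ± 3.32 for miR-429. For miR-200a-3p the mean was 18.3 ± 9.05, and 10 of its 19 spots were well above background. Of the miRNAs known from the intestine, miR-215-5p was detected with 20 spots from 39.3 to 53.0 and miR-375 with 20 spots from 22.3 to 44.0, each spot well above background. miR-192-5p and miR-194-5p were not detected, with spots from 1.49 to 10.9 and from -3.61 to 3.25.

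The normalized log2 values that the authors deposited for the same array kept this order of calls. hsa-miR-133b, hsa-miR-499a-5p, hsa-miR-122-5p and hsa-miR-9-5p all had the lowest value in the table, 2.32, which all 1101 undetected human miRNAs shared. hsa-miR-133a-3p had 2.33, the next value up. hsa-miR-9-3p followed with 2.98, hsa-miR-206 with 3.00, hsa-miR-208b-3p with 3.55 and hsa-miR-124-3p with 4.39. A member at 2.32 or 2.33 has no measured level in that table.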

How the data were processed

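Total RNA of DLD-1 cells was hybridized to a 1-colour Agilent-format human miRNA array. The deposited scanner output gives the intensity of each spot, with local background subtracted and outlier and detection flags set by the authors' Feature Extraction 11.0.1.1. The authors also deposited log2 values, described in the methods as quantile normalized with GeneSpring GX. Which arrays entered that step is not given in the sources used here.

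Human miRNA spots marked as outliers were left out. All 1000 negative control spots were kept, whatever their mark. The control level and the highest control spot therefore come from unfiltered spots. Log2 values (brightness below 1 set to 1) were averaged by probe and then by miRNA, and the 75th percentile over probes of detected miRNAs with at least 0.5 of their spots well above background was subtracted. Means and SDs are of linear brightness. Python 3.11.15, numpy 2.4.6, pandas 2.3.3 and matplotlib 3.10.9 were used, with limma 3.58.1 in R 4.3.3 for the normexp alternative (median spot and background signals, offset of 50). Probe averaging was tested on simulated data without background or outlier spots and with brightness above the limit of 1. That test did not cover the range of the dimmest members.

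All 9 members were named, with their opposite arms, relatives with at most 4 mismatches or the same seed, and from the other lists the brightest 2 and those detected where few were. Further names were picked after their values were seen. The members and lists were chosen with earlier results of these data known. Alternatives covered detection criterion, background level, spot flag, outliers, scaling, summary, signal column and array position. The precision is limited by the number of arrays, 1.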

Additional observations from a re-analysis of the deposited data

How the results depend on the processing

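The count of 5 detected members became 4 when at least 0.5 of the spots of a probe had to be well above background and 6 when they had to be positive and significant. It was 2 (miR-208b-3p and miR-124-3p) when every spot of a probe had to be well above background, and 4 under that criterion without the first 49 columns, an alternative added after the data were examined. The count of 5 members above the negative controls was 2 against their highest spot and between 4 and 6 under the other 8 alternatives. Spots well above background numbered 71 of 174, and 116 of 174 were positive and significant. The median log2 signal of the 9 members, -4.18, was -2.39 with the percentile over all probes, 3.78 without scaling, -4.87 from the total signal, -2.06 after normexp correction and 2.33 as deposited, where each scale has its own zero point. Of 45 values of single members under these 5 alternatives, 41 moved by more than the SD over spots, which follows in part from the change of scale. Under the other 4 alternatives 4 of 36 moved, 3 of them of hsa-miR-499a-5p, whose spots all lie at the lower limit and so have an SD of 0, and 1 of hsa-miR-9-5p with its outlier spot kept (-7.62 against -7.90). Signals near the negative controls, those of miR-133a-3p and miR-133b, are the least certain ones. No paired analysis was possible because only the control array was used.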
